A study of Mus musculus with 6 samples.

Results

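The 51 genes described here encode liver enzymes that break down amino acids or run the methionine, folate and glycine pathways. They were taken by name from a list whose rule uses no measured value, and the urea cycle is not among them. All 51 were found among the 49315 genes of the count table, and all 51 were among the 24382 genes with enough counts to be tested.

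Both groups were hepatocytes of male C57BL/6J mice (n=3), which were injected hydrodynamically at 8 weeks of age with 20 µg of the plasmid pT3-TTR-miR-206-IRES-GFP and 0.8 µg of a Sleeping Beauty transposase plasmid. The transthyretin promoter on the first plasmid transcribes miR-206 together with GFP, and the transposase inserts that unit into the genome of the cells that took it up. After 4 weeks the hepatocytes were isolated by perfusion and sorted by GFP, which gave 3 GFP-negative libraries (control) and 3 GFP-positive libraries (miR-206). In the sample labels the controls carry an empty vector and a wild-type genotype, whereas the design text draws both fractions from the injected mice. Under either account the contrast holds GFP status and the sort together with miR-206, by the design text plasmid uptake as well, and these cannot be told apart. The labels do not say which libraries came from one mouse, so the p-values measure the spread between these 6 libraries.

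The liver is the main site where surplus amino acids are degraded. Many of the pathways start with an enzyme that removes or moves the amino group or opens the ring. Breakdown mostly ends in pyruvate, acetyl-CoA, a citric acid cycle intermediate or a carbon unit carried by folate. Methionine is first activated to S-adenosylmethionine, the methyl donor of the cell, and the homocysteine left after methyl transfer is either methylated again or passed on to cysteine and taurine. Transcription of many of these enzymes in hepatocytes is known to respond to glucocorticoids, glucagon and liver-enriched transcription factors.

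A microRNA pairs through its seed, bases 2 to 8, mainly with sites in 3′ UTRs, and is known to lower the transcripts that carry them. The mature mouse miR-206 (RefSeq, GRCm38.p6, chr1:20679055-20679076, plus strand) is shown with its seed in capitals, followed by the 3′ UTR stretches of the 51 genes that match it, with the match in capitals. A 7mer-m8 site pairs with bases 2 to 8, an 8mer site has an A after that match as well, and other kinds of site were not searched. All are written 5′ to 3′ on the strand of the transcript.
mmu-miR-206-3p: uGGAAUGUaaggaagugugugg
Prodh (8mer, chr16:18077454-18077478, minus strand): cgttcatcttcaacACATTCCAgtg
Mat1a (7mer-m8, chr14:41123884-41123907, plus strand): tcataatcagtaccACATTCCcaa
Bhmt2 (7mer-m8, chr13:93656491-93656514, minus strand): ataatatgcttcttACATTCCtct
Coordinates are those of GRCm38 and the 3′ UTRs are the longest ones that GENCODE M21 gives for each gene. The site began at base 51 of 673 in Prodh, 1293 of 1807 in Mat1a and 563 of 1343 in Bhmt2. A site was thus found in 3 of 51 genes (5.88%), beside 1971 of the 16865 tested genes with an annotated 3′ UTR (11.7%). A longer 3′ UTR has more places for a match, and lengths were not matched between these sets. Whether the 51 hold fewer sites for their length was not tested.

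The libraries differed in depth and make-up. Total counts ran from 8966590 to 15244017 in the controls and from 4157947 to 5724329 in the miR-206 libraries, and 3 counts, the limit that a count of 0 allows, stood for 0.197 to 0.722 CPM (counts scaled to the library total). The levels below are CPM after TMM normalisation, which rescales each library for its composition. The share of mitochondrially encoded transcripts was 36.0%, 9.16% and 10.4% among controls 1 to 3 and 11.2%, 63.8% and 48.7% among miR-206 libraries 1 to 3. Background was read from the olfactory and vomeronasal receptors of sensory neurons. Their genes held 1.26 to 3.05 counts per exonic kb in control and 3.70 to 5.45 in miR-206 libraries. Scaled to the library total, that was 0.0894 to 0.340 CPM per exonic kb in control and 0.749 to 1.31 in miR-206 libraries. Mir206 was counted at 0 in all 6 libraries. An mRNA kit does not measure the mature microRNA, so the overexpression could not be checked on these counts. All 19 hepatocyte markers were counted in every library, and their summed level was 81764 to 197586 CPM in the controls and 22121 to 62411 CPM in the miR-206 libraries.

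Of the 51 enzyme transcripts, 49 were lower in the miR-206 libraries and 0 were higher (edgeR quasi-likelihood test, Benjamini-Hochberg adjusted p under 0.05 over all genes tested). Over all 24382 tested genes 29.6% were lower and 25.8% were higher. The log2 fold changes of the 51 ran from -6.35 to -0.26 with a median of -3.30. Over all tested genes the median was 0.45, a difference of -3.76 between the medians. After background subtraction, which tested fewer genes (4209), that difference was -0.24. The 2 that did not pass were Amt and Mccc1. Abundant genes as a whole were mostly lower. Among the 7257 tested genes at or above the lowest mean level of the 51 (11.3 CPM), 68.8% were lower and 6.85% were higher, with a median of -1.82. The count of lower enzymes is to be read against that share.

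**Figure D1:**
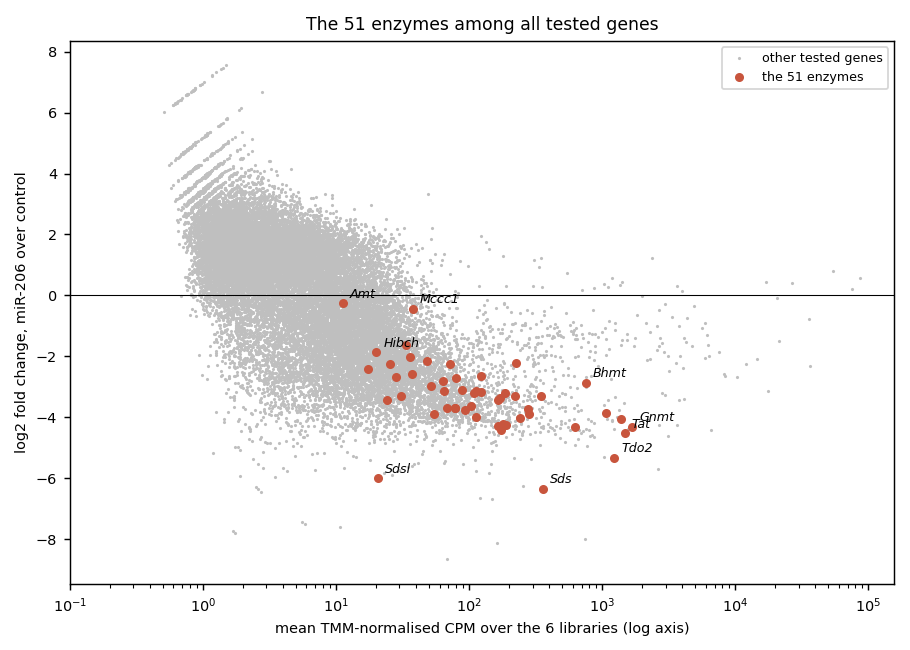
Log2 fold change (miR-206 minus control, vertical axis) against mean level over the 6 libraries (CPM, log axis) for all tested genes in grey and the 51 enzymes in red. All 51 lie below 0, from -6.35 to -0.26, in the range of levels where 68.8% of genes were lower. With libraries scaled on hepatocyte markers 12 of the 51 are above 0.

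With RLE factors 49 of the 51 were lower (30.8% of all tested genes), with upper-quartile factors 47 (19.7%, median -2.39), with library size alone 47 (15.5%, median -2.28), without mitochondrially encoded genes 49 (29.2%), without a filter on low counts 49 (17.9%) and with DESeq2 49 (31.3%). Leaving out 1 library gave 50 lower without control 1 (34.7%), 48 without control 2 (24.4%), 49 without control 3 (24.4%), 49 without miR-206 library 1 (25.4%), 48 without library 2 (22.3%) and 48 without library 3 (24.2%). In each of these 0 enzymes were higher, while the share of all tested genes that was higher ran from 7.06% to 47.7%. Amt and Mccc1 had positive values with library size alone and upper-quartile factors.

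For 47 of the 51 every miR-206 library lay below every control in normalised CPM, against 30.3% of all tested genes, and for 0 of the 51 every miR-206 library lay above, against 36.7%. The exceptions were Gldc, Amt, Mccc1 and Hibch. Summed over the 51 genes, the level was 8476, 33948 and 31758 CPM in the controls and 1289.7, 2158 and 1866 CPM in the miR-206 libraries. The groups did not overlap, but control 1 stood well below the other two controls. The share of the 51 in all counts other than mitochondrially encoded ones was 1.12%, 2.36% and 2.22% for controls 1 to 3. For miR-206 libraries 1 to 3 it was 0.276%, 0.664% and 0.485%, again without overlap. In bulk RNA, fewer hepatocytes in a sorted sample and less of a transcript per hepatocyte cannot be told apart.

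The hepatocyte markers were lower as well, with 13 of 19 past the test and 0 higher, beside the 68.8% of genes that were lower at the level of the enzymes. Not all markers reach that level: Foxa2 had means of 10.7 CPM in the controls and 0.335 CPM in the miR-206 libraries. The count of lower markers was 17 without control 1, 16 without miR-206 library 1 and 6 when any 1 of the other 4 libraries was left out. The enzymes were therefore also read with each library scaled on those 19 markers, a list that contains none of the 51. Per 100 CPM of hepatocyte markers the controls held 10.4, 17.2 and 16.1 CPM of the enzymes and the miR-206 libraries 2.07, 9.75 and 4.69 CPM. That ratio divides by the summed markers, whereas the scaling used their mean log2 count, in which each marker weighs equally. The log2 fold changes of the markers differed widely, from -5.29 for Cps1 and -4.94 for Foxa2 to -0.72 for Serpinc1 and -0.36 for Fgb. In the miR-206 libraries Foxa2 was at 0.203 and Cebpa at 0.862 times the receptor background for their exonic length. The marker scale thus depends on which markers are used, and other sets were not tried. With the scaling 14 of the 51 were lower and 2 were higher, with a median of -0.60. Over all tested genes 2.68% were then lower and 62.8% higher, with a median of 2.64, so that the medians differed by -3.24. The 14 were Sdsl (-3.39), Sds (-3.38), Tdo2 (-2.40), Tat (-1.80), Gpt (-1.77), Gnmt (-1.58), Ftcd (-1.55), Ahcy (-1.52), Aass (-1.48), Got1 (-1.41), Sardh (-1.36), Mat1a (-1.27), Prodh (-1.24) and Fah (-1.18), where the value in brackets is the log2 fold change on the marker scale. The 2 that were higher were Mccc1 (2.07) and Amt (2.05), and 10 further enzymes named in the paragraphs on their pathways had a positive value that did not pass.

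**Figure D2:**
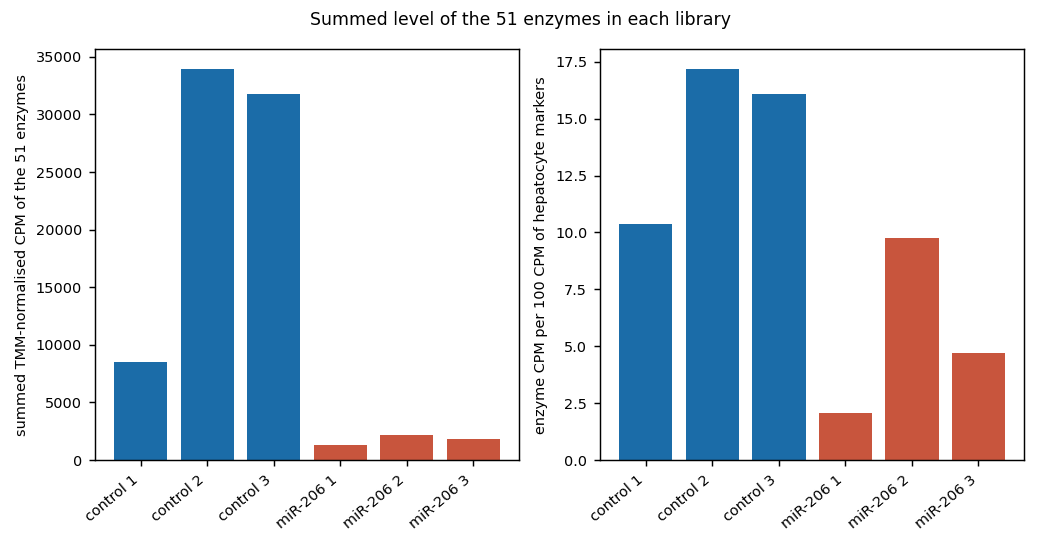
Summed level of the 51 enzymes in each library, as CPM and per 100 CPM of hepatocyte markers, with the values of the 3 controls and 3 miR-206 libraries as bars from 0. The miR-206 libraries lie at 1289.7 to 2158 CPM against 8476 to 33948 CPM, and at 2.07 to 9.75 against 10.4 to 17.2 per 100 CPM of markers. The ratio uses the summed markers, whereas marker scaling uses their mean log2 count.

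Serine, glycine and glyoxylate enzymes included the steepest differences of the set. Sds, serine dehydratase, which turns serine into pyruvate for glucose synthesis, was at 139, 985 and 988 CPM in the controls and 2.53, 14.9 and 8.64 CPM in the miR-206 libraries. Every miR-206 library lay far below every control, control 1 was the lowest control, and the transcript was 81.5-fold lower (log2 fold change -6.35, SE 0.98, adjusted p = 0.000676). The log2 fold change was -7.12 without miR-206 library 2 and -5.35 with library size alone. Its neighbour Sdsl, a serine dehydratase-like enzyme 3.72 kb away on chromosome 5, was at 16.8, 54.5 and 51.3 CPM in the controls and 0.632, 0.909 and 0.393 CPM in the miR-206 libraries (log2 fold change -5.99, SE 0.59, adjusted p = 0.000271). The latter rest on 5, 5 and 3 counts, which is 0.598 times what the receptor background would give over the length of the gene, so Sdsl was not detectable above background there. The coding sequences of Sds and Sdsl are 67.6% identical with a longest shared run of 13 bases. Of the exonic bases of Sds, 29.6% overlap genes on the other strand, and whether the counting used strand is not given in the sources used here.

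Agxt and Agxt2, aminotransferases that remove glyoxylate, had log2 fold changes of -3.44 and -2.16, and the serine hydroxymethyltransferases Shmt1 (cytosolic) and Shmt2 (mitochondrial), which pass the carbon of serine to folate, had log2 fold changes of -2.26 and -3.88. Without miR-206 library 2 Shmt2 was at -4.50. Gldc and Amt are the glycine decarboxylase and the aminomethyltransferase of the mitochondrial glycine cleavage system. Gldc had a log2 fold change of -2.58, although its lowest control overlapped the miR-206 libraries. Amt was at 14.4, 11.5 and 10.9 CPM in the controls and 6.33, 11.5 and 12.96 CPM in the miR-206 libraries, so that the groups overlapped (log2 fold change -0.26, SE 0.35, adjusted p = 0.524). In all, 7 of the 8 genes of the group were lower, with a median of -3.01. Scaled on the markers, 2 of the 8, Sds and Sdsl, were lower and Amt was higher, while Agxt2 (0.54), Shmt1 (0.36) and Gldc (0.15) had positive values that did not pass.

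**Figure D3:**
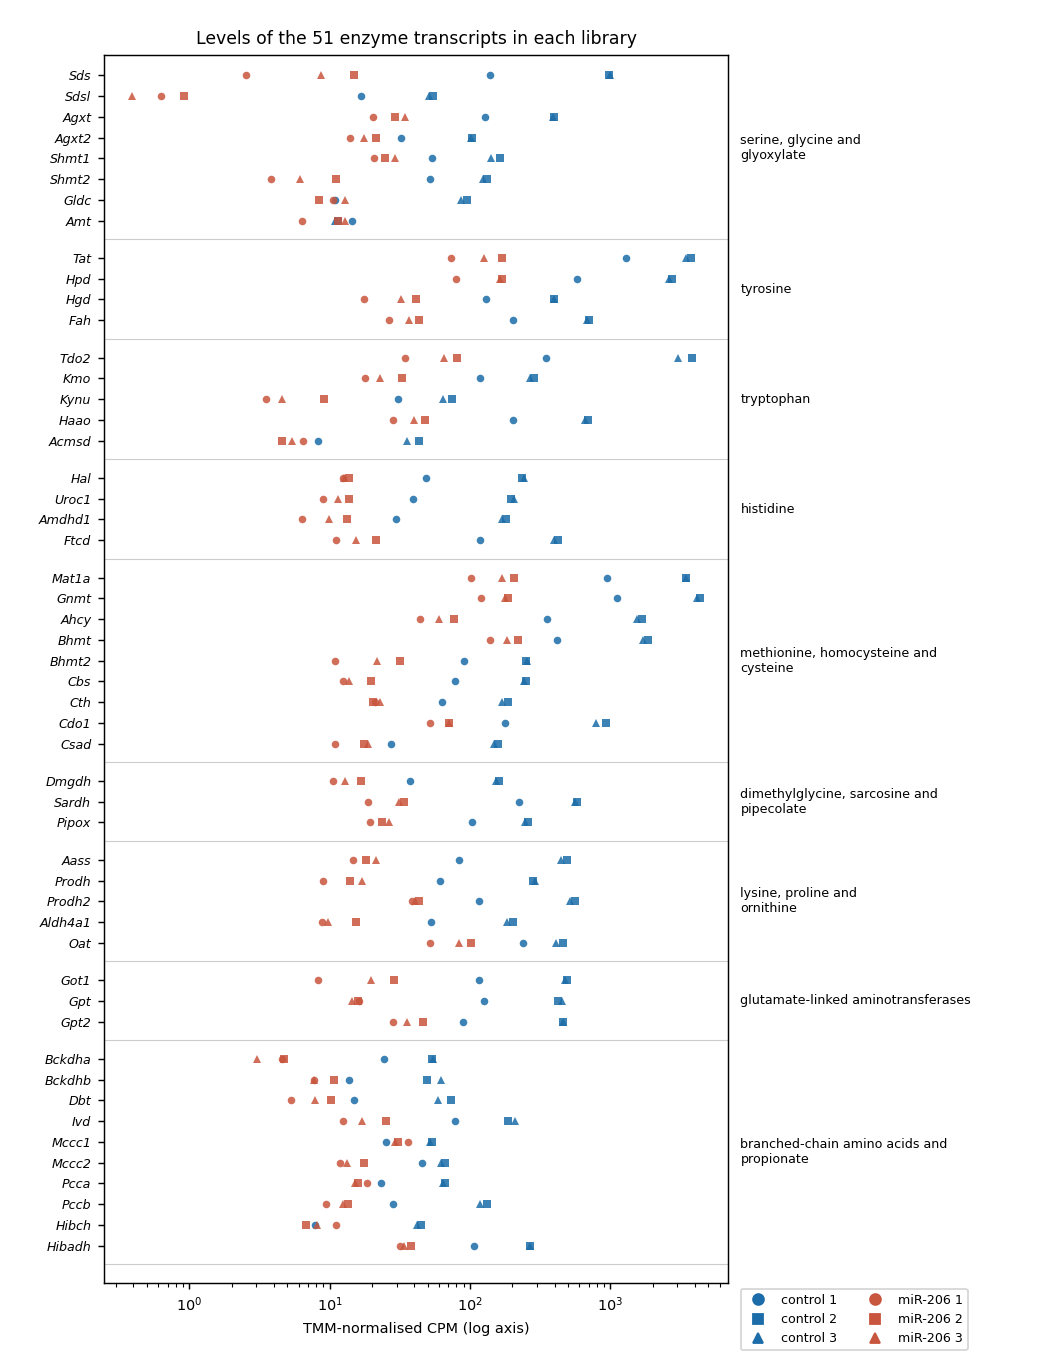
TMM-normalised CPM (log axis) of each of the 51 enzymes in the 3 control libraries (blue) and the 3 miR-206 libraries (red), grouped by pathway. For 47 enzymes all red points lie left of all blue points, and control 1 (blue circle) was the lowest control for all except Amt. On the scale of hepatocyte markers 12 of the 51 have a positive log2 fold change.

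All 4 tyrosine enzymes were lower, with a median of -3.88. They act in the order Tat, Hpd, Hgd, Fah. Tat, tyrosine aminotransferase, the first and rate-limiting step and a classical glucocorticoid-induced gene, was at 1293, 3743 and 3455 CPM in the controls and 73.1, 168 and 126 CPM in the miR-206 libraries. The lowest control was several times above the highest miR-206 library, and Tat was 23.1-fold lower (log2 fold change -4.53, SE 0.68, adjusted p = 0.000617). Hpd, the dioxygenase that follows it, was at 581, 2769.5 and 2608 CPM in the controls and 79.9, 169 and 164 CPM in the miR-206 libraries, without overlap (log2 fold change -3.85, SE 0.73, adjusted p = 0.00189). Homogentisate dioxygenase Hgd and fumarylacetoacetase Fah, the last step, had log2 fold changes of -3.35 and -3.90. By marker scaling Tat and Fah were lower, and Hpd (-1.05) and Hgd (-0.61) did not pass.

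All 5 tryptophan enzymes were lower, with a median of -3.30. Tdo2, the liver dioxygenase that opens the tryptophan ring and controls entry into the kynurenine pathway, was at 348, 3834 and 3041 CPM in the controls and 34.2, 81.1 and 64.8 CPM in the miR-206 libraries. Control 1 was far below the other controls and still above every miR-206 library (log2 fold change -5.33, SE 0.93, adjusted p = 0.00124). Without control 1 the log2 fold change was -5.92. Kmo and Haao, the oxygenases further along, had log2 fold changes of -3.18 and -3.74. Kynu, kynureninase, was at 30.5, 73.9 and 63.8 CPM in the controls and 3.54, 9.09 and 4.58 CPM in the miR-206 libraries (log2 fold change -3.30, SE 0.49, adjusted p = 0.000566), and the latter were 1.26 times the background for its length. Without miR-206 library 2 Kynu was at -3.92. Acmsd, which directs the pathway away from NAD synthesis, was at 8.19, 43.6 and 35.8 CPM in the controls and 6.45, 4.55 and 5.37 CPM in the miR-206 libraries, where the lowest control lay just above the highest miR-206 library (log2 fold change -2.41, SE 0.54, adjusted p = 0.00449). On the marker scale Tdo2 alone of the 5 was lower, at -2.40 (SE 0.60, adjusted p = 0.00447), and Acmsd was at 0.23.

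The 4 histidine enzymes Hal, Uroc1, Amdhd1 and Ftcd, which form a single route from histidine to glutamate and a folate-bound carbon, were lower within a narrow range. Their log2 fold changes lay between -4.30 and -3.69. Ftcd, which hands the formimino group to folate, was at 118, 421 and 397 CPM in the controls and 11.01, 21.3 and 15.3 CPM in the miR-206 libraries (log2 fold change -4.30, SE 0.62, adjusted p = 0.000512). Amdhd1, the imidazolone propionase, was at 29.5, 182 and 169 CPM in the controls and 6.33, 13.3 and 9.82 CPM in the miR-206 libraries (log2 fold change -3.69, SE 0.68, adjusted p = 0.0016). In both the groups were well apart. Hal, histidine ammonia-lyase and the first step, lies 4.03 kb from Amdhd1 on chromosome 10 and had a log2 fold change of -3.76, and urocanase Uroc1 had a log2 fold change of -3.69. With marker scaling all 4 values were negative and Ftcd alone passed, at -1.55 (SE 0.49, adjusted p = 0.0149).

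All 9 genes of methionine, homocysteine and cysteine metabolism were lower, with a median of -3.29. Gnmt, glycine N-methyltransferase, which uses up S-adenosylmethionine by methylating glycine, had the highest level per exonic kb of the 51 in both groups, with a mean of 2651 CPM per kb in the controls and 133 CPM per kb in the miR-206 libraries. It was at 1113, 4323 and 4153 CPM in the controls and 120.0, 186 and 177 CPM in the miR-206 libraries, without overlap (log2 fold change -4.31, SE 0.70, adjusted p = 0.000861). Mat1a, which makes S-adenosylmethionine in the adult liver, and Ahcy, which hydrolyses the S-adenosylhomocysteine left after methyl transfer, had log2 fold changes of -4.04 and -4.31. These 3 enzymes of the methyl cycle were also the members of the group that were lower on the marker scale, at -1.58 for Gnmt, -1.27 for Mat1a and -1.52 for Ahcy.

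Homocysteine is methylated again by Bhmt with betaine, or enters transsulfuration through Cbs. Cbs, cystathionine β-synthase, was at 77.8, 251 and 244 CPM in the controls and 12.5, 19.6 and 13.7 CPM in the miR-206 libraries (log2 fold change -3.64, SE 0.56, adjusted p = 0.000644). Bhmt was at 417, 1839.7 and 1708 CPM in the controls and 138, 219.7 and 184 CPM in the miR-206 libraries (log2 fold change -2.87, SE 0.65, adjusted p = 0.00468). The miR-206 libraries lay below all controls in both, with a wider gap for Cbs. Bhmt2, which methylates homocysteine from S-methylmethionine, had a log2 fold change of -3.21, and its coding sequence is 75.4% identical to that of Bhmt with a longest shared run of 59 bases, so reads of these 2 genes could in part be exchanged. The cystathionine γ-lyase Cth, the cysteine dioxygenase Cdo1 and Csad, which makes the taurine precursor hypotaurine, had log2 fold changes of -2.70, -3.29 and -2.82. Scaled on the markers, these 6 enzymes had values from -0.93 to -0.04 that did not pass.

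Betaine that has given a methyl group to homocysteine is left as dimethylglycine, which Dmgdh and then Sardh demethylate in mitochondria, while Pipox oxidises sarcosine and pipecolate in peroxisomes. All 3 were lower. Sardh was at 223, 582 and 557 CPM in the controls and 18.6, 33.7 and 31.3 CPM in the miR-206 libraries (log2 fold change -4.03, SE 0.58, adjusted p = 0.000497). Dmgdh, which lies 130 bp from Bhmt2 on chromosome 13, was at 37.3, 160.2 and 152 CPM in the controls and 10.6, 16.7 and 12.8 CPM in the miR-206 libraries (log2 fold change -3.12, SE 0.57, adjusted p = 0.0016). Pipox was at 104, 258 and 245 CPM in the controls and 19.5, 23.6 and 26.6 CPM in the miR-206 libraries (log2 fold change -3.12, SE 0.49, adjusted p = 0.000747). None of the 3 overlapped between the groups, and on the marker scale Sardh passed, at -1.36 (SE 0.45, adjusted p = 0.0179).

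Of the lysine, proline and ornithine enzymes 5 of 5 were lower, with a median of -3.70. Aass, which starts lysine breakdown, Prodh, which oxidises proline, and Prodh2, which oxidises hydroxyproline, had log2 fold changes of -4.23, -3.98 and -3.29. Aldh4a1, which acts in both routes, was at 52.6, 203 and 184 CPM in the controls and 8.85, 15.3 and 9.69 CPM in the miR-206 libraries (log2 fold change -3.70, SE 0.58, adjusted p = 0.000735). Of its exonic bases 32.5% overlap a predicted gene on the same strand. Oat, ornithine aminotransferase, which marks hepatocytes around the central vein, showed the smallest difference of these 5. It was at 237, 461 and 413 CPM in the controls and 52.1, 101 and 84.05 CPM in the miR-206 libraries, still without overlap (log2 fold change -2.23, SE 0.50, adjusted p = 0.00421), and on the marker scale it was at 0.37 and did not pass. Aass and Prodh were lower on that scale, at -1.48 and -1.24.

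The 3 aminotransferases that exchange amino groups with glutamate were lower, with a median of -4.26. Gpt, the cytosolic alanine aminotransferase that feeds pyruvate into glucose synthesis, was at 125, 422 and 454 CPM in the controls and 16.1, 16.01 and 14.5 CPM in the miR-206 libraries, which were nearly equal to each other (log2 fold change -4.42, SE 0.60, adjusted p = 0.00041). Got1, cytosolic aspartate aminotransferase, was at 115, 489.8 and 477 CPM in the controls and 8.22, 28.6 and 19.6 CPM in the miR-206 libraries (log2 fold change -4.26, SE 0.72, adjusted p = 0.00107). Gpt2, the mitochondrial alanine aminotransferase, was at 88.5, 458 and 461 CPM in the controls and 28.5, 46.02 and 35.5 CPM in the miR-206 libraries (log2 fold change -3.20, SE 0.65, adjusted p = 0.00279). The groups were apart for all 3, and on the marker scale the 2 cytosolic enzymes were lower, Gpt at -1.77 and Got1 at -1.41, while Gpt2 at -0.39 did not pass.

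The branched-chain and propionate enzymes, all of them mitochondrial, had the smallest median difference of the 9 pathway groups. Of 10 genes 9 were lower, with a median of -2.45. Bckdha, Bckdhb and Dbt are subunits of the branched-chain ketoacid dehydrogenase, the committed step for leucine, isoleucine and valine. Bckdha was at 24.3, 53.8 and 54.3 CPM in the controls and 4.55, 4.73 and 3.01 CPM in the miR-206 libraries (log2 fold change -3.43, SE 0.42, adjusted p = 0.00032). Its 2 partners had log2 fold changes of -2.27 (Bckdhb) and -2.67 (Dbt). Of the exonic bases of Bckdha, 61.7% overlap B3gnt8 on the other strand. Ivd, of leucine breakdown, had a log2 fold change of -3.11.

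Mccc1 and Mccc2 are the 2 subunits of methylcrotonyl-CoA carboxylase, also in leucine breakdown. Mccc1 was at 25.2, 53.3 and 52.2 CPM in the controls and 36.4, 30.6 and 29.3 CPM in the miR-206 libraries, where the lowest value of all 6 was a control (log2 fold change -0.44, SE 0.37, adjusted p = 0.318). Without control 1 it passed, at -0.79 (adjusted p = 0.00165). Mccc2 had a log2 fold change of -2.02, and the difference between the 2 subunits was not tested. Pccb, a subunit of propionyl-CoA carboxylase, was at 28.3, 131 and 117 CPM in the controls and 9.36, 13.5 and 12.4 CPM in the miR-206 libraries without overlap (log2 fold change -2.97, SE 0.56, adjusted p = 0.00192), and its partner Pcca had a log2 fold change of -1.64. Hibch and Hibadh, consecutive steps of valine breakdown, had log2 fold changes of -1.86 (adjusted p = 0.0181) and -2.63. Hibch overlapped between the groups, and it passed the test in 3 of the 6 fits that each leave out 1 library. On the marker scale none of the 10 was lower, Mccc1 was higher, and 5 others had positive values that did not pass: Bckdhb (0.47), Dbt (0.12), Mccc2 (0.47), Pcca (0.95) and Hibch (0.79).

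**Figure D4:**
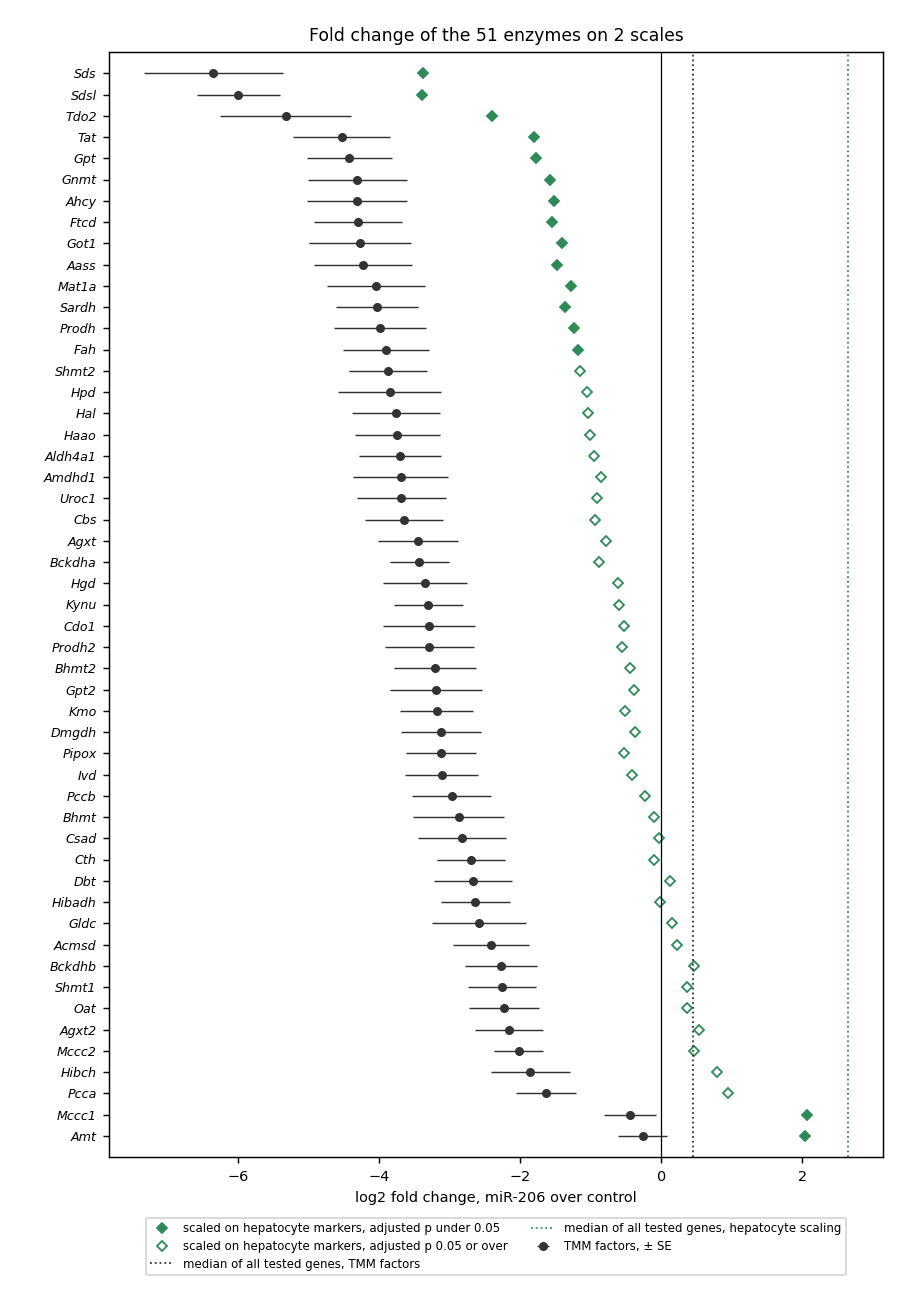
Log2 fold changes (miR-206 minus control, horizontal axis) of the 51 enzymes under TMM normalisation (circles, with bars of 1 SE) and with libraries scaled on 19 hepatocyte markers (diamonds, filled where the adjusted p was under 0.05). Dotted lines mark the median of all tested genes on each scale, 0.45 and 2.64. All 51 are below 0 in the former, with a median of -3.30, and 39 of 51 in the latter, with a median of -0.60.

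Location and cofactor were not used to choose the genes. The 23 mitochondrial enzymes had a median of -2.97, with 21 lower, and the 28 enzymes of other compartments a median of -3.72, with all 28 lower. With marker scaling the medians were -0.23 (3 lower, 2 higher) and -0.98 (11 lower, 0 higher). The 16 enzymes that use pyridoxal phosphate had a median of -3.37 and the other 35 a median of -3.29. These medians are descriptions, and no difference between the subsets was tested. The order of levels per exonic kb changed in places. Gnmt, Tat, Hpd and Mat1a filled the first 4 ranks in both groups, whereas Tdo2 went from rank 5 in the controls to 12, Sds from 7 to 24, and Oat from 13 to 6.

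The 3 genes with a miR-206 site were lower: Mat1a at -4.04, Prodh at -3.98 and Bhmt2 at -3.21. Of the 48 without a site 46 were lower, with a median of -3.30. Among all tested genes with an annotated 3′ UTR, 35.9% of those with a site and 41.7% of those without were lower, with medians of -0.29 and -0.58. RefSeq promoters (GRCm38.p6, 250 bases before to 50 after the start) were matched for 43 of the 51 genes and searched on both strands. The letters CAAAGTCCA, a motif of Hnf4a, were found in Agxt2 and Pipox, 4.65% of the 43 against 0.555% of all 27025 genes in the table. The C/EBP letters TTGCNNAA were in 11.6% against 12.2%, the glucocorticoid half-site TGTTCT in 11.6% against 21.3%, TATAAA in 11.6% against 15.7%, and TGACGTCA of the cyclic AMP response in 0 of 43 against 2.03%. A match is a stretch of letters and not a measured binding site.

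A further 53 enzymes of the same pathways and 10 transcription regulators known to act on them were read from the same test. Of the 53, 42 were lower, 2 were higher and 9 did not pass, with a median of -2.79, beside 29.6% lower and 25.8% higher over all tested genes. Among tested genes with a mean of 11.3 CPM or more, 68.8% were lower and 6.85% higher. Some of the 53, such as Mthfd2, lie below that level. With marker scaling 5 of the 53 were lower and 11 higher, with a median of -0.08, beside 2.68% and 62.8% over all tested genes. Afmid, which follows Tdo2 in the kynurenine pathway, was at 21.7, 61.6 and 66.1 CPM in the controls and 3.54, 3.82 and 4.71 CPM in the miR-206 libraries (log2 fold change -3.62, SE 0.47, adjusted p = 0.000363). The latter were 1.65 times the receptor background for its length, so the size of that fold is uncertain. Grhpr, a glyoxylate reductase, was at 91.3, 241 and 242 CPM in the controls and 12.3, 14.2 and 14.3 CPM in the miR-206 libraries (log2 fold change -3.82, SE 0.51, adjusted p = 0.000393). These genes had no overlap between the groups.

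The enzymes of serine synthesis, which run opposite to Sds, were not among the genes that were lower in the edgeR test. Phgdh, the first step, was at 14.3, 7.99 and 5.44 CPM in the controls and 4.81, 9.09 and 6.55 CPM in the miR-206 libraries (log2 fold change -0.44, SE 0.43, adjusted p = 0.389). Psph, the last step, was at 8.06, 15.5 and 12.01 CPM in the controls and 10.8, 6.91 and 8.51 CPM in the miR-206 libraries (log2 fold change -0.44, SE 0.35, adjusted p = 0.294), so that both overlapped between the groups. Psat1, the step between them, was at 4.36, 2.70 and 3.06 CPM in the controls and 7.59, 8.91 and 7.72 CPM in the miR-206 libraries and passed the test as higher (log2 fold change 1.26, SE 0.38, adjusted p = 0.0185). It kept that call without control 1 and lost it when any 1 of the other 5 libraries was left out, where its adjusted p was 0.0707 to 0.138. In mitochondrial folate metabolism Mthfd2 was at 2.91, 8.30 and 5.21 CPM in the controls and 5.95, 1.64 and 3.01 CPM in the miR-206 libraries, with overlap (log2 fold change -0.62, SE 0.56, adjusted p = 0.35). Aldh1l2, the mitochondrial formyltetrahydrofolate dehydrogenase, was at 8.32, 2.70 and 3.40 CPM in the controls and 25.3, 17.3 and 20.2 CPM in the miR-206 libraries and rose (log2 fold change 2.13, SE 0.44, adjusted p = 0.00289). Psat1 and Aldh1l2 are the 2 that were higher of the 53 and were singled out after their values were seen. As multiples of the receptor background for its exonic length, Psat1 went from 3.52 in the controls to 2.72 in the miR-206 libraries, which is lower, and Aldh1l2 from 2.76 to 4.12. By the same measure Phgdh went from 16.3 to 3.82, Psph from 12.7 to 2.99 and Mthfd2 from 7.39 to 1.56, all lower and close to background. On the marker scale Psph (1.97) and Mthfd2 (1.73) were higher as well, and Phgdh (1.74) was positive and did not pass.

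All 10 regulators were lower, with a median of -3.52, beside 29.6% of all tested genes and 68.8% of those at the level of the enzymes. The latter share is for genes with a mean of 11.3 CPM or more. Not all regulators reach that level: Cebpb had means of 12.95 CPM in the controls and 0.699 CPM in the miR-206 libraries. Leaving out 1 library gave 8 to 10 lower: Creb1 (adjusted p = 0.0497 with all libraries) passed in 2 of the 6 fits and Ppargc1a in 4. They ran from -4.70 for Cebpa and -4.30 for Hnf4a to -0.90 for Ppargc1a and -0.71 for Creb1, with the glucocorticoid receptor Nr3c1 at -2.37. In the miR-206 libraries Cebpa was at 0.862 and Cebpb at 0.595 times the receptor background, so neither was detectable above background there and the size of their folds is uncertain. On the marker scale, whose 19 genes include Hnf4a and Cebpa among the regulators, 2 were lower (Hnf4a -1.54 and Cebpa -1.99) and 2 were higher (Ppargc1a 1.39 and Creb1 1.58), while Nr3c1 (0.17) and Foxo1 (0.54) were positive and did not pass.

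Summed markers of the other liver cell types were lower in the miR-206 libraries as well, with ranges of the full sums that overlapped for red cells alone. The counts below stand beside 29.6% of all tested genes lower and 25.8% higher. The 12 Kupffer cell markers summed to 624 to 1968 CPM in the controls and 70.7 to 83.1 CPM in the miR-206 libraries, with 12 of 12 lower. Timd4 passed in 2 of the 6 fits that leave out 1 library and the other Kupffer cell markers in all 6. For the 10 sinusoidal endothelial markers the ranges were 536 to 576 and 114 to 126 CPM, with 10 of 10 lower. Of these, Stab2 passed in 3 of those 6 fits, Pecam1 and Kdr in 5 and the others in all 6. Stellate cell markers summed to 256 to 669.7 CPM and 134 to 154 CPM (4 of 10 lower, 2 to 7 with 1 library left out), and cholangiocyte markers to 865 to 3086 CPM and 46.2 to 108 CPM (5 of 7 tested lower). Lymphocyte markers gave 372 to 412 CPM and 68.0 to 88.6 CPM (4 of 10 lower, 3 higher, the latter 0 to 3 with 1 library left out), and red cell markers 38.0 to 159 CPM and 16.8 to 45.0 CPM (1 of 5 lower, 1 to 3 with 1 library left out). The lymphocyte sum was carried by the immunoglobulin gene Igkc, and the other 9 markers summed to 70.5 to 82.05 CPM in the controls and 66.2 to 87.1 CPM in the miR-206 libraries, which overlap. Counts of 0 were found for the lymphocyte marker Nkg7 in miR-206 libraries 1 and 3 and the red cell marker Hbb-bt in miR-206 library 2. The part of other cell types in the enzyme differences was not tested.

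The mitochondrial share did not separate the groups: control 1 stood above 20% with miR-206 libraries 2 and 3, and controls 2 and 3 stood below it with miR-206 library 1. Within the libraries below 20% the median of the 51 was -4.38, with 51 of 51 negative. Within those above 20% it was -1.88, with 50 of 51 negative and Mccc1 at 0.20. Each of these comparisons has a single library in one arm and its values are given without a test.

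Background bears on the low end of the miR-206 values. Measured as multiples of the receptor background for each gene's exonic length, the 51 lay between 0.598 (Sdsl) and 189.7 (Gnmt) in the miR-206 libraries. Kynu was at 1.26, Hibch at 2.12, Prodh at 2.45, Gldc at 2.58, Acmsd at 2.84 and Cbs at 2.87, whereas Hpd was at 91.1, Tat at 70.5 and Mat1a at 64.03. After subtraction of that background, with the test run on the genes whose mean count was at least 10 times the background, 49 of the 51 were tested (not Mccc1 and Hibch). That mean was over all 6 libraries, so a high level in the controls alone was enough to enter the test. Of these, 13 were lower and 2 were higher, with a median of -0.38. Over the 4209 genes tested 15.7% were lower and 19.3% higher, with a median of -0.14, so that the medians differed by -0.24. The 13 were Sds (-3.31), Sdsl (no fold, since its miR-206 counts were under the background), Tdo2 (-2.11), Prodh (-1.52), Gpt (-1.48), Tat (-1.45), Ftcd (-1.37), Aass (-1.24), Gnmt (-1.16), Ahcy (-1.16), Sardh (-1.15), Cbs (-1.10) and Hal (-1.06). Of the 13, Tdo2 (21.5), Tat (70.5), Gnmt (189.7) and Ahcy (30.1) were at 10 times the background or more in the miR-206 libraries themselves. The others were below that there, as Sds at 6.83 and Gpt at 7.63, and entered through the controls. Their subtracted miR-206 counts were small, so the size of their folds is uncertain. Amt (2.34) and Pcca (1.16) were higher, and both were also below 10 times the background in the miR-206 libraries. In that test 13 of the 49 had a positive value. With marker scaling added to the subtraction, 12 of the 49 were lower and 0 were higher, with a median of -0.81. Of the 4209 genes 17.8% were then lower and 6.39% higher, with a median of -0.63, so that the medians differed by -0.185.

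**Figure D5:**
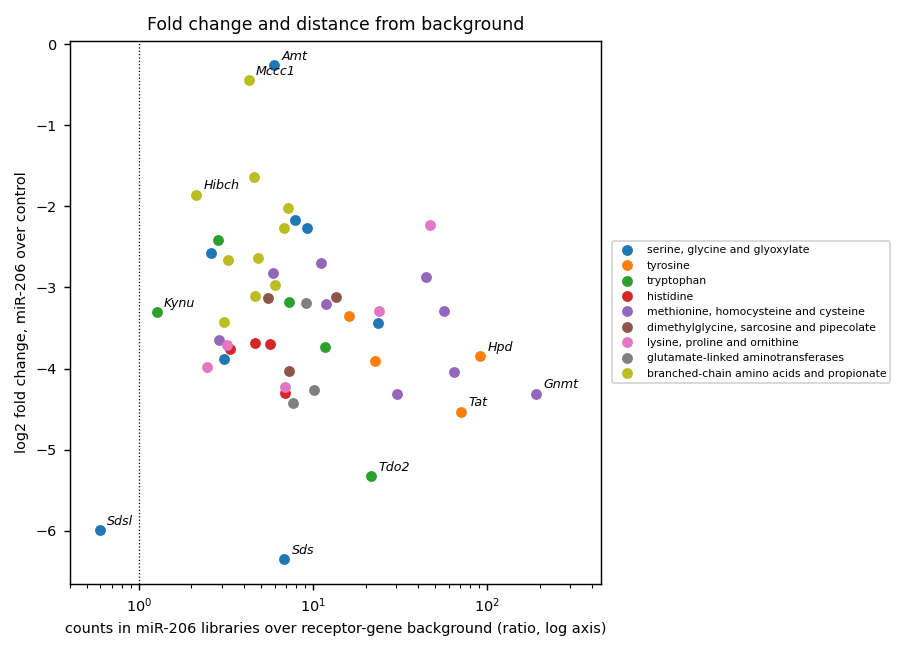
Log2 fold change (miR-206 minus control, TMM normalisation, vertical axis) of the 51 enzymes against their level in the miR-206 libraries as a multiple of the receptor background for the exonic length (log axis), coloured by pathway. The multiples run from 0.598 for Sdsl, left of the dotted line at 1, to 189.7 for Gnmt. All 51 fold changes are negative, whereas 13 of 49 were positive after background subtraction and 12 of 51 on the marker scale.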

How the data were processed

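RNA of 6 sorted hepatocyte libraries (3 control, 3 miR-206) was extracted and amplified with a SMARTER mRNA-Seq kit, per the labels' protocols. The authors deposited raw counts per Ensembl gene, whole numbers without normalisation. The submitters' processing notes name GRCm 38 and mm 10, with the aligner, the counter, the annotation and the strandedness not given in the sources used here. Symbols are those of the table. Exonic lengths, coordinates and 3′ UTRs came from GENCODE M21, to which 49056 of 49315 genes matched by identifier.

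Library factors came from TMM on genes kept by filterByExpr (minimum count 10), and the groups were compared by the quasi-likelihood test of edgeR 4.0.16 (robust, group as the only term, all 6 libraries, R 4.3.3), adjusted by Benjamini-Hochberg over all genes tested with a threshold of 0.05. The script was tested on simulated data. Alternatives were DESeq2 1.42.0, other scalings, no filter, a replicate block, background subtraction and leaving out each library. Subtraction combined with marker scaling and the split at a mitochondrial share of 20% were added after seeing the data. Marker scaling set each library by its mean log2 count of 19 hepatocyte markers. Background was the counts per exonic kb over 1702 receptor genes (5503 kb).

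The enzymes, the other gene lists and the tests were chosen with earlier results of these data known. Values in every library are given for the genes with the smallest p, the largest p and the highest level per kb of each pathway group, and for the 3 smallest and 3 largest p of the other lists. Results for some listed genes that this rule or the marker counts would name are not reported here. Tables and drawings used Python 3.11.15, pandas 2.3.3, Biopython 1.88 and matplotlib 3.10.9. Intervals of counting are covered by the 3-count limit alone, since reads are not independent molecules.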

Additional observations from a re-analysis of the deposited data

How the results depend on the processing

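Of the 51 enzymes, 47 to 50 were lower and 0 higher with RLE or upper-quartile factors, library size alone, mitochondrial genes left out, no filter, DESeq2 and each library left out in turn (48 to 50 lower, medians -3.80 to -3.13). The median was -2.39 with upper-quartile factors, -2.28 with library size alone, and -4.38 and -1.88 in libraries below and above 20% mitochondrial counts. With hepatocyte marker scaling the count was 14 lower and 2 higher (median -0.60), with background subtraction 13 lower and 2 higher (median -0.38), and with both 12 lower and 0 higher (median -0.81). The cause of these shifts was not tested. Subtraction and its combination test fewer genes, kept by their mean over all libraries, so that a high level in the controls alone was enough. The sign turned positive with marker scaling for Acmsd (0.23), Hibch (0.79), Shmt1 (0.36), Pcca (0.95), Gldc (0.15), Mccc2 (0.47), Mccc1 (2.07), Dbt (0.12), Agxt2 (0.54), Oat (0.37), Amt (2.05) and Bckdhb (0.47). With background subtraction it did for Hibadh (0.14), Agxt2 (0.80), Pcca (1.16), Shmt1 (0.69), Mccc2 (0.74), Dbt (0.051), Bckdhb (0.70), Oat (0.75), Amt (2.34), Csad (0.14), Cth (0.28), Bhmt (0.28) and Acmsd (0.22). With both it did for Pcca (0.67), Mccc2 (0.31), Oat (0.36), Bckdhb (0.30), Agxt2 (0.40), Amt (1.87) and Shmt1 (0.24). Mccc1 was positive above 20% mitochondrial counts (0.20), with library size alone (0.71) and with upper-quartile factors (0.47), as was Amt with the latter 2 (0.70 and 0.55). The same-numbered libraries did not deviate together (correlations 0.0082, 0.023 and -0.0064, and not every library correlated best with its own number), and with the replicate number as a block 49 enzymes were lower, with a median of -3.27. Over all genes the block gave 6697 lower and 5362 higher. Over all tested genes marker scaling gave 653 lower and 15321 higher, against 7213 and 6289 with TMM. Upper-quartile factors gave 4812 lower and 10629 higher and library size alone 3774 and 11642. Leaving out 1 library gave 6202 to 8858 lower and 1916 to 10674 higher. Pcca and Hibch did not pass with upper-quartile factors or library size alone. Sdsl had the lowest counts of the 51, with 3 to 5 in each miR-206 library.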
